A study of Mus musculus with 29 samples.

Results

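The PGC-1 coactivators and the metabolic transcription factors that work with them were followed in mouse hearts through induced heart failure (HF) and the recovery after it. The 10 genes were the rows of the deposited expression table with the symbols Ppargc1a, Ppargc1b, Ppara, Ppard, Esrra, Esrrb, Esrrg, Nrf1, Tfam and Klf15, out of 29955 genes in all. Each symbol had a row, and all 10 averaged at least 0.5 FPKM (fragments scaled to transcript length and to the number of mapped fragments), the minimum for a test, as did 12759 genes of the whole table.

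Male C57BL/6J mice, 3 months old at the start, drank water with salt (NaCl, 1%) and L-NAME (0.3 mg/ml), which blocks the synthesis of nitric oxide, for 5 weeks. From 1 week on, an osmotic pump that runs for 28 days also delivered the pressor hormone angiotensin II at 0.7 mg/kg/day. The agents then ended and the mice were left untreated to week 19, so that weeks 7, 9, 11 and 13 and week 19 belong to recovery. The libraries used were 5 of HF (2 at week 3 and 3 at week 5), 9 of early recovery (2 each at weeks 7, 9 and 13 and 3 at week 11), 5 of Recovery week 19 and 5 of age-matched controls at week 19, which received none of these agents. Each was poly(A) RNA of wild-type tissue, described as whole heart or ventricle by the submitters and as the apical portion of the heart in the study's methods. The labels list the samples of a group separately without saying in so many words that each is another mouse, and the p-values below measure the spread between these libraries only. Columns were matched to groups by name and not to single samples. The controls of week 5 were not used here because 5 columns stood against 4 labelled samples. A comparison of HF with a group of week 19 also holds any difference of age.

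The 24 libraries differed in ways other than the groups. Both HF week 3 libraries stood apart: library 1 had 12816 genes above 0 against 16339 to 18091 in the others, and in library 2 the 10 most abundant genes took 37.5% of all FPKM, the highest share of the 24 libraries, against 19.8% in library 1. This share was 27.9% to 37.4% of all FPKM in Recovery weeks 7 to 13 and 14.6% to 18.8% in HF week 5 and in both groups of week 19. The depth of each library was unknown; the steps between low values gave relative depths between 0.728 and 1.397 for 23 libraries. Of 10 cardiomyocyte markers, Myh6, Myl2, Mb and Actc1 were listed at 0 in every control library, although the heart makes them in abundance. A value of 0 was therefore not read as absence. These zeros differed by group: Myh6 had no value above 0 throughout HF week 5, nor had Myh6 and Mb throughout Recovery week 19. In HF week 3 and Recovery weeks 7 to 13 no marker of the 10 was 0 across a whole group. Against Control week 19, Actc1 thus had log2 fold changes of 13.1 in HF week 5 and 14.2 in Recovery week 19. It is counted in the shares of all genes below. The remaining 6 markers summed to between 20849 and 25317 FPKM in the controls, 18190 to 24241 in HF week 5 and 14995 to 15370 in HF week 3.

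The heart burns mostly fatty acids, and it keeps the genes for that work under a small circuit of regulators. PGC-1α and PGC-1β, encoded by Ppargc1a and Ppargc1b, bind no DNA themselves. They dock on nuclear receptors and other factors and recruit the machinery of transcription. The PPARs respond to fatty acids and drive their uptake and oxidation, while the estrogen-related receptors, which have no known natural hormone, drive the citric acid cycle, the respiratory chain and the production of ATP. NRF1, nuclear respiratory factor 1, acts on nuclear genes of the respiratory chain and on Tfam, whose protein packages and transcribes mitochondrial DNA. KLF15, a Krüppel-like zinc finger factor, drives lipid and branched-chain amino acid use in heart muscle and is known to follow the daily clock and glucocorticoids.

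The stretches of DNA just before the start sites of 3 of these genes are shown because Klf15 and Ppara had the largest fold changes of the set in HF week 5, and Ppargc1a encodes the inducible coactivator. They are RefSeq windows of the GRCm38.p6 build, 250 bases each, read 5′ to 3′ on the gene's own strand and ending at the base before the start site. The expression table was made on mm9, so the coordinates apply to GRCm38.p6 only. Klf15 lies at chr6:90462326-90462575 on the plus strand, Ppara at chr15:85735526-85735775 on the plus strand and Ppargc1a at chr5:51567726-51567975 on the minus strand. Capitals mark the motifs found on either strand: CACGTG, the E-box of clock factors, in Klf15; the palindrome that NRF1 recognises (GCGCA joined to TGCGC) in Ppara; and ACGTCA, part of the cyclic AMP response element, in Ppargc1a.
Klf15: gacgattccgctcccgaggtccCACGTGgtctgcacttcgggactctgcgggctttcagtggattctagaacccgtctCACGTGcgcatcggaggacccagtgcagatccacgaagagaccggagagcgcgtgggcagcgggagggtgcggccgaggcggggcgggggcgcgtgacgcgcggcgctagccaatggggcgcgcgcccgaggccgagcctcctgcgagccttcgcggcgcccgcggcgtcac
Ppara: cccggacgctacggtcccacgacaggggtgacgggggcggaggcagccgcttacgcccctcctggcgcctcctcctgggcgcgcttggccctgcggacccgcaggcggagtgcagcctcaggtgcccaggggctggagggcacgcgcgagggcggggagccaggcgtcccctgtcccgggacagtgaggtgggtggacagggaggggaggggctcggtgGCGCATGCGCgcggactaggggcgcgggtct
Ppargc1a: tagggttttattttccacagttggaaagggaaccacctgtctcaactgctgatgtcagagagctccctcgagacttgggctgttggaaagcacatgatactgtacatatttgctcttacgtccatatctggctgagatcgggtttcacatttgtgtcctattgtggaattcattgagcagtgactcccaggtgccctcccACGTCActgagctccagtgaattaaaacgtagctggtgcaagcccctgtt

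The 2 E-boxes of Klf15 begin 228 and 172 bases before the start site, the NRF1 palindrome of Ppara 31 bases and the ACGTCA of Ppargc1a 50 bases before it. The motifs share no bases with each other. Windows of 9 of the 10 genes, 14 in all, were searched for these letters, and Ppargc1b was left out of the search by choice. The same windows were searched for AAGGTCA, the element that a single nuclear receptor binds, which was in none of them. Each of the other 3 motifs was found in 1 gene. Of 32851 such windows over the genome's genes, 6.02% held CACGTG, 6.47% ACGTCA, 0.782% the NRF1 palindrome and 4.08% AAGGTCA. A match in these letters is a description of the window and not a site in use.

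The question of the first comparison was what the hearts expressed at the end of induction. In HF week 5, 9 of the 10 genes fell against Control week 19 at an adjusted p under 0.05 (limma on log2(FPKM + 0.5), two-sided, Benjamini-Hochberg over all genes tested). Across all genes tested 12.4% fell by this rule and 24% changed in either direction. The median log2 fold change of the 10 genes was -0.74, and that of all genes 0.04. Ppara and Klf15 fell the most, Tfam the least of those that passed, and Nrf1 was the gene that did not pass. At the unadjusted p under 0.05 that the study names, the same count of 9 fell, against 17.7% of all genes. In 8 of the 10 genes the HF and control libraries did not overlap, as in 29.5% of all genes. In bulk tissue, fewer cells of a type and less RNA per cell cannot be told apart.

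**Figure D1:**
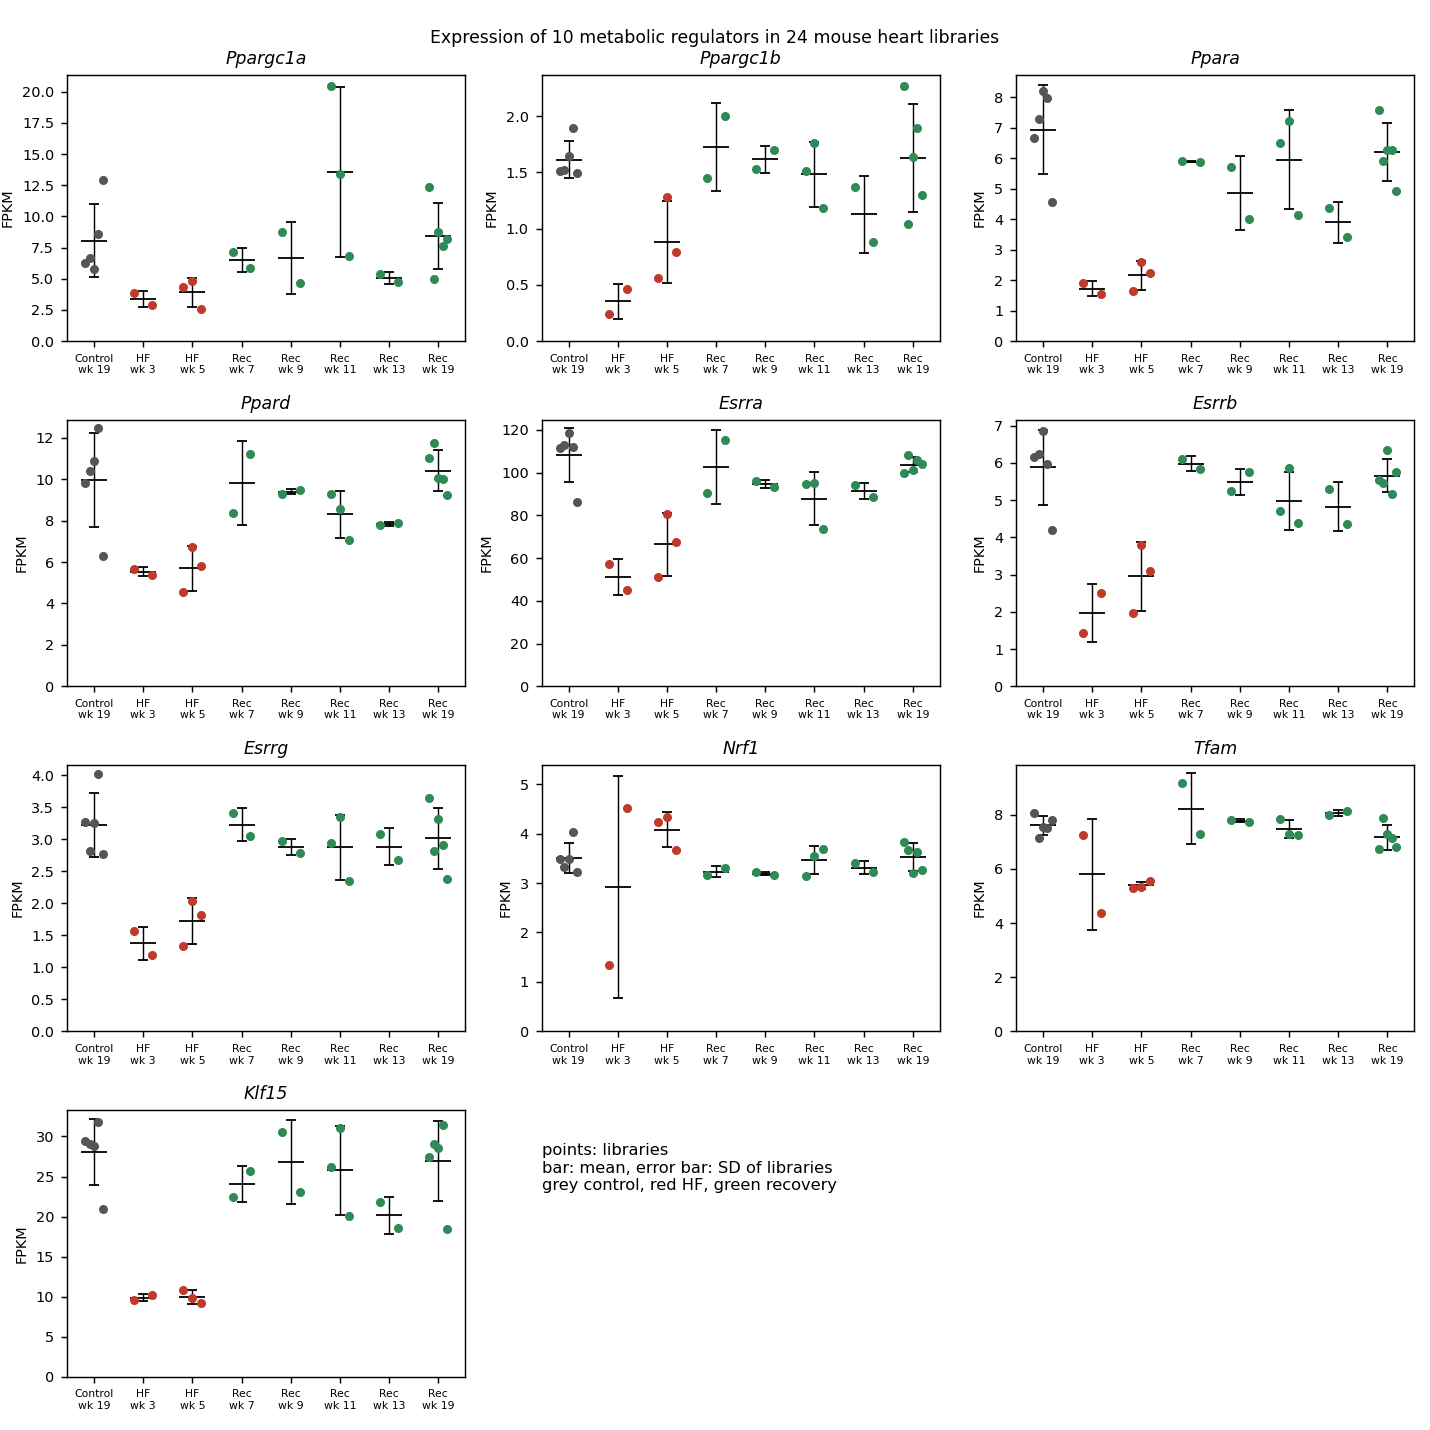
Expression of each of the 10 genes in FPKM (vertical axis, linear from 0) by group in order of week; points are libraries, horizontal bars the group means and error bars the SD between libraries. The red HF points of Ppara and Klf15 lie below every control and recovery point, whereas those of Nrf1 lie among or above them in HF week 5.

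Of the coactivators, Ppargc1a, which is switched on by exercise, cold and fasting, was measured at 6.30, 6.67, 5.78, 8.55 and 12.9 FPKM in control libraries 1 to 5. In HF week 5 its values were 4.32, 4.84 and 2.61 FPKM, all below the lowest control. It fell by 0.93 on the log2 scale (SE 0.32, adjusted p = 0.0393, limma), or 1.90-fold. This was the least certain of the calls: over 19 alternatives the log2 fold change ran from -1.40 to -0.69 and the adjusted p from 0.0238 to 0.181, and 8 of them lost the call, among them those without control library 2, 4 or 5 or without HF week 5 library 1 or 3.

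Ppargc1a varied widely between the libraries of some groups. In Recovery week 11 it was measured at 20.5, 13.4 and 6.82 FPKM, and in Recovery week 19 at 12.4, 5.01, 8.78, 7.59 and 8.23 FPKM. Library 1 of Recovery week 11 held the highest value of all 24 libraries. Recovery week 19 stood above HF week 5 without overlap (log2 fold change 0.99, SE 0.32, adjusted p = 0.0282), a call that 6 of 19 alternatives lost, including those without HF week 5 library 1 or 3 or Recovery week 19 library 1 or 3.

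Ppargc1b, the closely related coactivator that sustains basal mitochondrial function, had the lowest level of the set. Its control values were 1.51, 1.52, 1.65, 1.89 and 1.496 FPKM, and its HF week 5 values 0.563, 1.28 and 0.794 FPKM. Library 2 of HF week 5 came nearest to the controls without reaching them. Ppargc1b fell by 0.65 on the log2(FPKM + 0.5) scale (SE 0.19, adjusted p = 0.0215, limma), a scale that understates the change of so low a gene. The call was lost without control library 4, without HF week 5 library 1 or 3, and with HF week 5 library 3 as the only HF library (adjusted p up to 0.163 over 19 alternatives). In Recovery week 19 it rose again by 0.63 on that scale (SE 0.19, adjusted p = 0.0243), with values of 2.27, 1.04, 1.63, 1.90 and 1.30 FPKM, of which library 2 lay below the highest HF library. That call was lost in 6 of 19 alternatives: without HF week 5 library 1 or 3, with library 3 as the only HF week 5 library, without Recovery week 19 library 1 or 4, and with only the groups compared in the fit (adjusted p up to 0.177).

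Among the PPARs, Ppara, the main driver of fatty acid oxidation in heart muscle, had the largest fall of the 10 genes. Control libraries 1 to 5 gave 6.66, 7.30, 8.21, 7.97 and 4.56 FPKM, and the HF week 5 libraries 1.64, 2.60 and 2.23 FPKM. The highest HF library thus stayed under the lowest control, library 5, which was also well under the other 4. Ppara fell 2.78-fold, by 1.48 on the log2 scale (SE 0.19, adjusted p = 7.76e-05, limma), and passed under each of 19 alternatives, with an adjusted p of 0.0144 at most. Its fold change stood at percentile 0.792 of all genes tested.

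In recovery Ppara rose. Recovery week 7 gave 5.92 and 5.87 FPKM, Recovery week 9 gave 5.72 and 4.00, and Recovery week 11 gave 6.51, 7.24 and 4.13. Recovery week 13 was lower, at 4.38 and 3.42 FPKM, and Recovery week 19 gave 7.57, 5.93, 6.28, 6.28 and 4.92 FPKM. Every recovery library was above every HF library. Recovery week 19 exceeded HF week 5 by 1.34 on the log2 scale (SE 0.19, adjusted p = 0.000162), and passed under all 19 alternatives (adjusted p up to 0.0239).

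Ppard, the PPAR with the broadest expression and also a regulator of fatty acid use, was measured at 9.80, 10.4, 10.9, 12.5 and 6.29 FPKM in the controls. HF week 5 gave 4.58, 6.71 and 5.79 FPKM, so that HF library 2 overlapped control library 5 while the other 4 controls were higher. Ppard fell by 0.74 (log2, SE 0.17, adjusted p = 0.00372, limma) and rose by 0.83 in Recovery week 19 (SE 0.17, adjusted p = 0.00171), where its values were 11.1, 11.8, 10.04, 9.997 and 9.25 FPKM, all above HF.

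All 3 estrogen-related receptors fell. Esrra, the best known partner of PGC-1α on genes of the respiratory chain, was the most abundant of the 10 genes, with control values of 112, 113, 119, 112 and 86.2 FPKM. HF week 5 gave 51.4, 80.6 and 67.5 FPKM. Library 2 of HF week 5 lay just under control library 5, and the other libraries were clearly separate. Esrra fell 1.64-fold (log2 fold change -0.71, SE 0.14, adjusted p = 0.00145, limma). Recovery week 19 gave 99.6, 108, 101, 106 and 104 FPKM and lay above HF week 5 by 0.66 on the log2 scale (SE 0.14, adjusted p = 0.00243).

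Esrrb, known from stem cells and also expressed in heart, was measured at 6.15, 6.23, 6.84, 5.97 and 4.19 FPKM in the controls and at 1.98, 3.80 and 3.08 FPKM in HF week 5. The groups did not overlap. It fell by 0.91 on the log2 scale (SE 0.18, adjusted p = 0.00137, limma), more than the other receptors of its family in value. A test of the differences between the receptors was not made. In Recovery week 19 it stood at 5.55, 5.45, 6.35, 5.17 and 5.75 FPKM, higher than HF week 5 by 0.87 (SE 0.18, adjusted p = 0.00182).

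Esrrg, which is active in highly oxidative muscle and in the maturing heart, gave 3.27, 2.82, 3.26, 4.01 and 2.77 FPKM in the controls and 1.34, 2.04 and 1.81 FPKM in HF week 5. All HF libraries were below all controls. The log2 fold change was -0.74 (SE 0.15, adjusted p = 0.00158, limma), and that of Recovery week 19 over HF week 5 was 0.66 (SE 0.15, adjusted p = 0.00368), with recovery values of 3.64, 2.82, 3.31, 2.91 and 2.39 FPKM. In both comparisons, calls for Ppard, Esrra, Esrrb and Esrrg were lost in 1 of 19 alternatives each, the one that kept HF week 5 library 3 as the only HF library.

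Nrf1 and Tfam form the nuclear arm of mitochondrial gene expression, and the difference between their changes was not tested. Nrf1 (nuclear respiratory factor 1) was measured at 3.49, 3.32, 3.48, 4.03 and 3.22 FPKM in the controls and at 4.23, 4.34 and 3.67 FPKM in HF week 5. HF libraries 1 and 2 were above all controls and library 3 lay among them. Its log2 fold change of 0.19 did not pass (SE 0.19, 95% interval -0.21 to 0.60, adjusted p = 0.503, limma). In Recovery weeks 7 to 13 its 9 libraries spanned 3.15 to 3.69 FPKM. The difference of those weeks from HF week 5 was -0.27 (SE 0.18, adjusted p = 0.292); it was called, with Nrf1 lower in recovery, in 2 alternatives that left the HF week 3 libraries out of the fit, with an adjusted p of 0.0183 at the lowest.

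Tfam gave 8.07, 7.13, 7.56, 7.496 and 7.79 FPKM in the controls and 5.30, 5.34 and 5.54 FPKM in HF week 5. The 3 HF libraries were close together and well below every control. Tfam fell 1.38-fold (log2 fold change -0.46, SE 0.12, adjusted p = 0.00782, limma). With each library centred on the 6 cardiomyocyte markers that no library lists at 0, the call was lost (adjusted p = 0.31). In Recovery week 19 Tfam was measured at 6.72, 7.87, 7.30, 7.14 and 6.81 FPKM, above HF week 5 without overlap (0.38, SE 0.12, adjusted p = 0.0234), a call lost in 5 of 19 alternatives, with an adjusted p of up to 0.32.

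Klf15 had the lowest p-value of the set. The controls gave 29.5, 29.1, 28.9, 31.8 and 20.9 FPKM, HF week 3 gave 9.52 and 10.2, and HF week 5 gave 10.8, 9.83 and 9.18 FPKM. The 5 HF libraries were alike, and each was less than 11 FPKM while no control was below 20. Klf15 fell 2.71-fold in HF week 5 (log2 fold change -1.44, SE 0.17, adjusted p = 3.85e-05, limma) and kept the call under all 19 alternatives, with an adjusted p of 0.00789 at most.

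In recovery Klf15 rose. The values were 22.5 and 25.7 FPKM in Recovery week 7, 30.5 and 23.1 in week 9, 26.1, 31.1 and 20.0 in week 11 and 21.8 and 18.5 in week 13. Recovery week 19 gave 27.4, 29.0, 28.6, 31.4 and 18.4 FPKM. The difference from HF week 5 was 1.37 on the log2 scale (SE 0.17, adjusted p = 4.67e-05), held under all 19 alternatives.

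In Recovery week 19 as a whole, 9 of the 10 genes were called higher than in HF week 5, against 12.3% of all genes tested, and the median log2 fold change was 0.75 against -0.04 over all genes. In 8 of the 10 the groups did not overlap, as in 26.7% of all genes. This comparison and the first one share the HF week 5 libraries, so a fall in the one and a rise in the other are not independent of each other. Both also set week 5 against week 19, so the rise, like the fall, holds any difference of age.

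**Figure D2:**
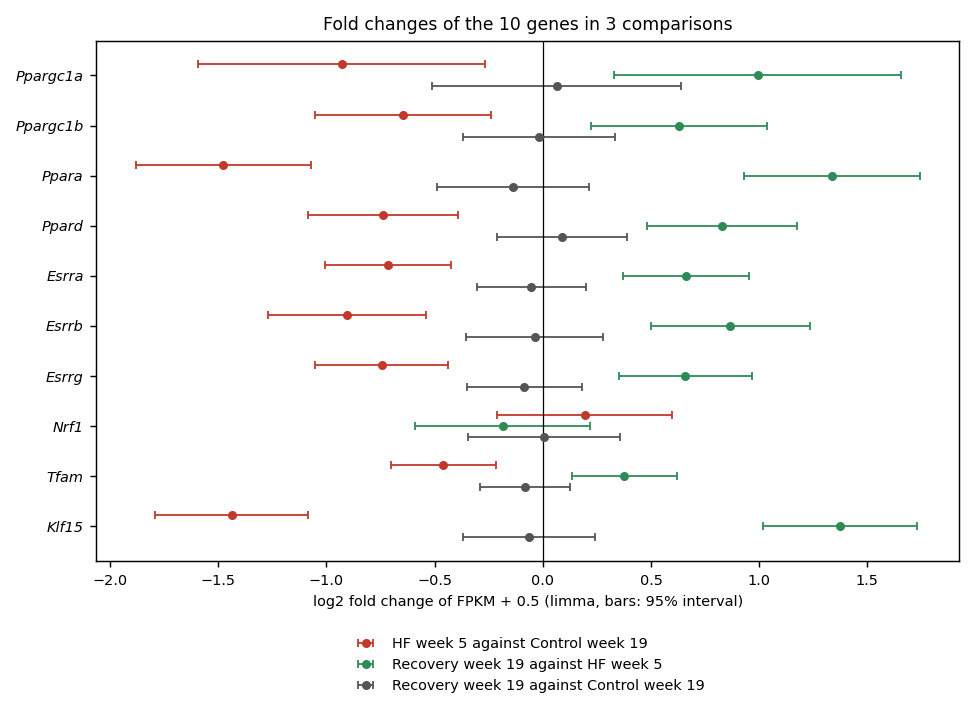
Log2 fold change of FPKM + 0.5 (horizontal axis) of each of the 10 genes with its 95% interval from limma, for HF week 5 against Control week 19 (red), Recovery week 19 against HF week 5 (green) and Recovery week 19 against Control week 19 (grey). Nrf1 is the gene whose intervals all include 0, and every grey interval includes 0.

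The last comparison set Recovery week 19 beside controls of the same week. None of the 10 genes was called in limma at the adjusted or at the unadjusted p, against 0.0235% and 2.88% of all genes, and the groups of each gene overlapped, as they did in all but 1.17% of the genes tested. The log2 fold changes lay between -0.14 for Ppara and 0.09 for Ppard, and their signs changed with the scaling or with 1 library left out. A p that misses the threshold does not show equal levels, and the 95% intervals give the room left: -0.49 to 0.21 for Ppara, -0.37 to 0.24 for Klf15, -0.30 to 0.20 for Esrra, -0.29 to 0.13 for Tfam and, the widest, -0.51 to 0.64 for Ppargc1a. The intervals for Ppara and Klf15 end short of the falls of 1.48 and 1.44 measured in HF week 5.

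At HF week 3, in the course of induction, 9 of the 10 genes were again called lower than Control week 19, but so were 27.6% of all genes, and both of its libraries stood apart, in different ways. The median log2 fold change of the 10 genes was -1.08. Ppara gave 1.89 and 1.56 FPKM (log2 fold change -1.72, adjusted p = 7.17e-06), Ppargc1b 0.242 and 0.465 FPKM (-1.32, adjusted p = 0.000107) and Esrrb 1.42 and 2.51 FPKM (-1.39, adjusted p = 2.28e-05, limma). Nrf1 gave 1.34 in library 1 and 4.51 in library 2, the lowest and the highest value of all 24 libraries, and Tfam gave 7.26 and 4.36 FPKM, so these libraries differed in opposite directions for these genes. The Ppargc1a call was lost without either of the 2 libraries (adjusted p = 0.0551 and 0.104), and the Tfam call without library 2, where the difference was -0.06 (adjusted p = 0.651, limma) against -0.74 without library 1. Without library 1 the Nrf1 difference turned from -0.40 to 0.33 (adjusted p = 0.0687), and without library 2 it was -1.12 and was called (adjusted p = 9.34e-07, limma). With the cardiomyocyte markers as the reference, 3 genes were called lower, against 5.3% of all genes, and 1, Nrf1, higher, against 66.1%, the differences of Nrf1, Tfam and Ppard turned to 0.51, 0.50 and 0.14, and that reference moved the median of all genes to 0.86 in this comparison. No gene of the 10 was called between HF week 3 and HF week 5 in limma, against 21.4% of all genes. Ppargc1b came nearest, with a log2 difference of -0.67 (SE 0.24, unadjusted p = 0.0122, adjusted p = 0.054). At an unadjusted p under 0.05, 3 genes were lower in HF week 3, as were 23.7% of all genes: Ppargc1b, Esrrb (-0.49, adjusted p = 0.109) and Nrf1 (-0.59, adjusted p = 0.0814), whose 2 libraries lie on either side of HF week 5.

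The early recovery libraries were tested as the mean of the 4 groups of weeks 7, 9, 11 and 13. Of the 10 genes, 9 were called higher than in HF week 5, against 11.2% of all genes. In order of adjusted p, Klf15 came first with 1.22 on the log2 scale (SE 0.16, adjusted p = 5.93e-05), followed by Ppara with 1.07 (SE 0.18, adjusted p = 0.000472) and Esrrb with 0.78 (SE 0.16, adjusted p = 0.00213, limma). Ppargc1a and Ppargc1b passed narrowly, with adjusted p of 0.0468 and 0.0351, and lost the call in 13 and 8 of 23 alternatives. Without HF week 5 library 1, 5 of the genes were called higher, against 5.39% of all genes. Against Control week 19, none was called at an adjusted p under 0.05, against 0.0705% of all genes. At an unadjusted p under 0.05, 1 gene was lower, against 3.53% of all genes: Ppara, which differed by -0.40 on the log2 scale (SE 0.15, unadjusted p = 0.0138, adjusted p = 0.571, limma). Its values of 4.38 and 3.42 FPKM in Recovery week 13 gave the lowest mean of the 5 recovery weeks, 3.90 FPKM.

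FPKM corrects for transcript length, so that levels of different genes can be set side by side. In the controls Esrra stood first at 108.3 ± 12.6 FPKM (SD, n = 5) and Klf15 second at 28.0 ± 4.13, each apart from the next gene in every library. Ppard (9.97 ± 2.29), Ppargc1a (8.05 ± 2.92), Tfam (7.61 ± 0.35), Ppara (6.94 ± 1.46) and Esrrb (5.88 ± 1.00) followed, and each overlapped its neighbour in this order. Nrf1 (3.51 ± 0.31) and Esrrg (3.23 ± 0.50) overlapped each other, and Ppargc1b (1.61 ± 0.17) was last and apart. In HF week 5 the means were 66.5 ± 14.6 for Esrra (SD, n = 3), 9.95 ± 0.83 for Klf15, 5.69 ± 1.07 for Ppard, 3.92 ± 1.16 for Ppargc1a, 5.40 ± 0.13 for Tfam, 2.16 ± 0.48 for Ppara and 2.95 ± 0.92 for Esrrb.

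Genes with the most similar course were sought over the 24 libraries as those with the smallest root mean square difference of log2(FPKM + 0.5), each gene centred on its own mean, among 6762 genes of at least 5 FPKM on average. The nearest gene to Klf15 was Ppara itself, at 0.21, followed by Lpin1 (0.22), which encodes a phosphatidate phosphatase and coactivator, and Fitm2 (0.23), a gene of lipid droplet formation. Ppara was most like Fitm2 (0.16), Tbc1d16 (0.17) and Lpin1 (0.18), against a spread of its own of 0.63. Esrra was closest to Kif1c (0.081), Tmem201 (0.082) and Tmem186 (0.10). Esrrb was closest to Smyd1 (0.083), a methyltransferase of heart and skeletal muscle, and then to Bcl2l13 (0.11) and Pacsin2 (0.12). Esrrg was closest to Opa1 (0.12), the fusion protein of the inner mitochondrial membrane, Dnajc28 (0.13) and Fhod3 (0.13), and Ppard to AU040320 (0.11), Dpp9 (0.12) and Kif1c (0.12). Ppargc1b came near to Vldlr (0.18) and Limch1 (0.18), Tfam to Cul2 (0.11), Tcp1 (0.11) and Nap1l4 (0.12), and Nrf1 to Prr14 (0.12), Wac (0.12) and Stau1 (0.13). Ppargc1a had no close neighbour: its nearest, Tmem164, Cdc37l1 and Dusp18, differed by 0.42, 0.42 and 0.45 against a spread of 0.64 of its own.

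The partners and the targets of these regulators were counted in lists of known genes. In HF week 5 against Control week 19, 12.4% of all genes tested fell, 11.6% rose and the median was 0.04, and the counts of each list stand beside these shares. Of 22 partners and regulators of PGC-1, 21 could be tested, and 8 fell and none rose (median log2 fold change -0.30). Lpin1 fell by 1.18 (SE 0.15, adjusted p = 5.75e-05) and Mef2d, a muscle transcription factor that acts on the Ppargc1a promoter, by 1.16 (SE 0.32, adjusted p = 0.0131), a call lost without HF week 5 library 1 and with library 3 as the only HF week 5 library (adjusted p up to 0.203). Rxrg, a retinoid X receptor and so a possible dimer partner of the PPARs, was at 43.4 ± 3.96 FPKM (SD, n = 5) in the controls and 21.5 ± 7.99 (SD, n = 3) in HF week 5 and fell by 1.07 (adjusted p = 0.000519). Perm1, a muscle protein induced by PGC-1 and ERR and listed under its older symbol 2310042D19Rik, fell by 0.98 (SE 0.18, adjusted p = 0.00113, limma).

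Of 24 PPAR targets, 12 fell, against 12.4% of all genes, and none rose (median -0.51). Acadm, the medium-chain acyl-CoA dehydrogenase, went from 571 ± 43.8 FPKM (SD, n = 5) in the controls to 224 ± 100.1 (SD, n = 3) in HF week 5, a fall by 1.47 (adjusted p = 0.000152, limma). Hadhb, of the mitochondrial trifunctional protein, fell by 1.42 (adjusted p = 0.000165) and Slc25a20, the carnitine carrier, by 1.24 (adjusted p = 0.000185, limma). Plin5, which ties lipid droplets to mitochondria, fell by 1.31 (adjusted p = 0.00235, limma), a call lost with library 3 as the only HF week 5 library. Over 19 alternatives the log2 fold change of Plin5 ran from -1.65 to -0.80. In 12 targets no call was made in either direction. They include, chosen after their values were seen, Pdk4 and Angptl4, textbook PPAR targets whose log2 fold changes were 0.49 (adjusted p = 0.409) and 1.12 (adjusted p = 0.0622, limma).

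Of 22 oxidative genes driven by ERR and PGC-1, 11 fell, again against 12.4% of all genes, and none rose (median -0.47). Ndufs1, the largest subunit of complex I, fell by 0.91 (SE 0.12, adjusted p = 6.87e-05), Cs, citrate synthase, by 0.86 (adjusted p = 0.00666), and Ldhb, the heart form of lactate dehydrogenase, by 0.72 (adjusted p = 0.00966, limma). The calls of Cs and Ldhb were lost in 2 and 3 of 19 alternatives, both of them without HF week 5 library 1 (adjusted p up to 0.16 and 0.167). Of 15 genes that maintain or transcribe mitochondrial DNA, none fell and 1 rose (median -0.22). This was Tk2, the mitochondrial thymidine kinase, at 4.25 ± 0.083 FPKM (SD, n = 5) in the controls and 7.34 ± 2.20 (SD, n = 3) in HF week 5 (log2 fold change 0.69, adjusted p = 0.00416, limma), a call lost in 2 of 19 alternatives, again without HF week 5 library 1. At an unadjusted p under 0.05, 2 of these genes were lower, a share near the 17.7% of all genes, and the difference between this list and the others was not tested.

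Of 7 targets of KLF15, 6 fell, where 12.4% of all genes did (median -0.63). The other, Prodh, was higher by 0.38 at an unadjusted p of 0.0382 and was not called (adjusted p = 0.113, limma). The falls were led by Kcnip2, which encodes the KChIP2 subunit of the transient outward potassium channel and fell by 1.97 (SE 0.34, adjusted p = 0.000633), and by Acss1, the mitochondrial acetyl-CoA synthetase, which fell by 1.06 (adjusted p = 0.000789). Over 19 alternatives the log2 fold change of Kcnip2 ran from -2.40 to -1.29. Bcat2, which starts branched-chain amino acid breakdown, fell by 0.77 (adjusted p = 0.0131) and Slc2a4, the insulin-sensitive glucose transporter, by 0.63 (adjusted p = 0.0154, limma). The last pair of calls was lost in 3 and 4 of 19 alternatives, both without HF week 5 library 1. In Recovery week 19 against HF week 5, 8 partners, 13 PPAR targets, 10 oxidative genes and 2 KLF15 targets were called higher, as were 12.3% of all genes, and 1 KLF15 target and 1 gene of mitochondrial DNA were called lower, as were 12% of all genes. No gene of these lists was called between Recovery week 19 and Control week 19 in limma. In that comparison 2 PPAR targets were higher at an unadjusted p under 0.05, as were 2.01% of all genes.

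**Figure D3:**
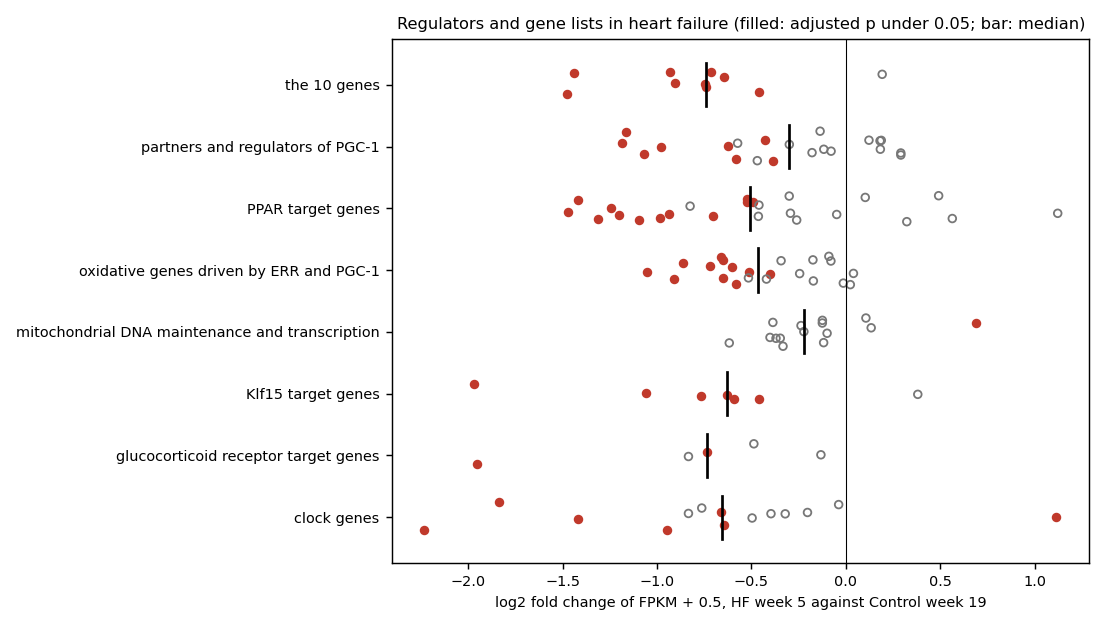
Log2 fold change of FPKM + 0.5 in HF week 5 against Control week 19 (horizontal axis) for the 10 genes and each list (rows); points are genes, filled where the adjusted p was under 0.05, and vertical bars are medians. The medians of all rows lie below 0, from -0.22 for genes of mitochondrial DNA to -0.74 for the 10 genes.

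Because Klf15 follows the clock and glucocorticoids, these lists were read beside it. Of 5 glucocorticoid receptor targets 2 fell, against 12.4% of all genes: Zbtb16, by 1.95 (SE 0.38, adjusted p = 0.00154), and Sgk1, by 0.73 (SE 0.20, adjusted p = 0.0136, limma). Of 15 clock genes, 14 were tested, 6 fell and 1 rose, against 12.4% and 11.6% of all genes. Ciart, listed as Gm129, fell by 2.23 (adjusted p = 0.00434), Dbp, an output factor of the clock, by 1.84 (adjusted p = 0.00314) and Bhlhe41 by 1.42 (adjusted p = 0.0196), while Arntl, which encodes the clock activator BMAL1, rose by 1.12 (adjusted p = 0.0132, limma). Without HF week 5 library 1 the calls of Bhlhe41 and Arntl were lost, and without library 2 that of Sgk1 (adjusted p up to 0.228, 0.14 and 0.189 over 19 alternatives). With library 3 as the only HF week 5 library, none of these 6 genes was called.

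Clock genes also differed within groups. Dbp gave 77.1, 82.2, 78.9, 39.5 and 34.3 FPKM in control libraries 1 to 5 and 6.91, 34.3 and 16.9 FPKM in HF week 5. Arntl gave 1.22, 0.844, 0.931, 2.87 and 2.44 FPKM in the controls and 5.36, 2.48 and 4.22 FPKM in HF week 5. In Recovery weeks 7, 9 and 13 Arntl was between 0.263 and 0.652 FPKM, below every control, and Dbp between 82.3 and 138 FPKM, above every control. Recovery week 11 gave 1.76 to 3.24 FPKM for Arntl and 32.4 to 50.0 for Dbp. For Arntl, Recovery weeks 7 to 13 against HF week 5 gave a log2 fold change of -1.84 (adjusted p = 0.000244, limma). The hour of collection is not given in the sources used here. Control libraries 4 and 5 and HF week 5 library 2 came near each other in both genes. In Recovery week 19 against HF week 5, 5 clock genes and 2 glucocorticoid receptor targets were called higher in limma, against 12.3% of all genes, and none lower. The part of the clock in the falls and rises of Klf15 and the other genes was not tested.

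**Figure D4:**
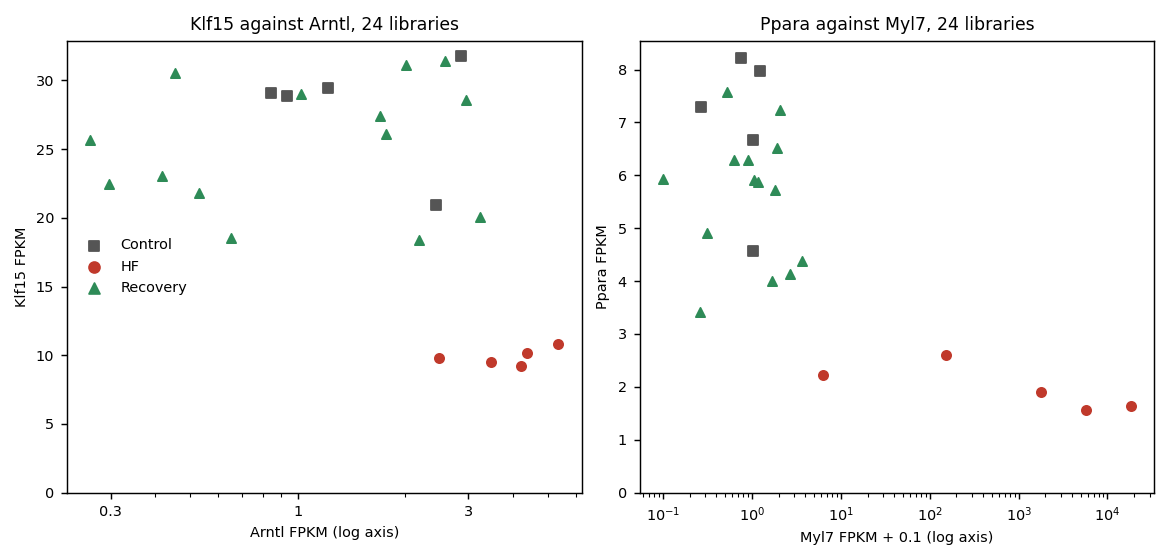
Left, Klf15 against Arntl, and right, Ppara against Myl7, both in FPKM with a log horizontal axis (0.1 added to Myl7), in 24 libraries (squares control, circles HF, triangles recovery). Klf15 in HF lies near 10 FPKM at Arntl values from 2.48 to 5.36, where control and recovery libraries reach up to 3.24, and Ppara in HF lies below 3 FPKM from the lowest to the highest Myl7 value of the HF libraries.

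Markers of other cells also moved with HF. The 5 atrial markers summed to between 89.6 and 349 FPKM in the controls, 2229 to 81734 in HF week 5 and 7737 to 14050 in HF week 3. In HF week 3, Nppa and Bmp10 were listed at 0 in both libraries, so its sum leaves them out and is unlike the others. There Myl7 was at 1805 and 5773 FPKM and Myl4 at 4094 and 4206. Myl7, the atrial myosin light chain, was at 18388, 152 and 6.16 FPKM in HF week 5 libraries 1, 2 and 3, and between 0.166 and 1.12 FPKM in the controls. Adipoq, a fat cell marker, was at 10.5, 15.6 and 0.052 FPKM in the same HF libraries and was listed at 0 in 4 of 5 controls. Nppa, the natriuretic peptide gene that the ventricle also makes under load, was at 42004, 2100 and 2214 FPKM in these libraries and between 81.1 and 345 FPKM in the controls, so the atrial sum of library 3, 2229 FPKM, came almost wholly from Nppa and was above every control. In library 3, 9 of the 10 genes were below every control, as were 27.4% of all genes in that library, and Nrf1 lay among the controls, with Klf15 at 9.18, Ppara at 2.23 and Ppargc1a at 2.61 FPKM. With library 3 as the only HF week 5 library, assumed to vary like the other groups, Klf15 (log2 fold change -1.55, adjusted p = 0.00789) and Ppara (-1.42, adjusted p = 0.0144, limma) were called lower, against 2.21% of all genes, and the other 8 were not called. Ppargc1a then differed by -1.40 (adjusted p = 0.117) and Esrra by -0.67 (adjusted p = 0.0518). The part of atrial tissue in the falls was not tested.

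Endothelial markers summed to between 248.9 and 316 FPKM in the controls and 356 and 456 in HF week 5, and those of smooth muscle cells and pericytes to between 104 and 129 and between 171 and 251. Fibroblast markers reached 253 to 360 FPKM in the controls and 357 to 707 in HF week 5, and those of macrophages and leukocytes 90.0 to 168 and 118 to 217. The adipocyte list gave 32.7 to 40.1 FPKM in the controls and 36.9 to 84.0 in HF week 5, and that of skeletal muscle fibres 1.09 to 2.99 and 3.26 to 8.14. In HF week 3 fibroblast markers summed to between 740 and 747 FPKM, endothelial markers to between 394 and 501, those of smooth muscle cells and pericytes to between 180 and 186, those of macrophages and leukocytes to between 176 and 190, adipocyte markers to between 43.5 and 59.2 and skeletal muscle markers to between 8.56 and 14.0. The part of these cells in the falls of the 10 genes was not tested. By Recovery week 19, endothelial markers summed to between 258 and 281 FPKM, those of macrophages and leukocytes to between 136 and 312, fibroblast markers to between 312 and 458, and those of smooth muscle cells and pericytes to between 105 and 147. Macrophage and leukocyte markers reached 213 to 308 FPKM in Recovery week 13. The part of these cells in the rise of the 9 genes was not tested either. The cardiomyocyte reference of 6 markers moved the median log2 fold change of all genes in HF week 5 from 0.04 to 0.22, and the genes called from 12.4% lower and 11.6% higher to 5.96% lower and 16.3% higher, with 7 of the 10 genes lower. By it Ppargc1a fell short of the threshold (-0.75, adjusted p = 0.0916), as did Tfam, while Ppargc1b was called narrowly (-0.47, adjusted p = 0.0471, limma).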

How the data were processed

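The 10 genes and all lists were chosen with earlier results of these data known. Per the labels and the study's methods, the authors aligned paired-end poly(A) reads with TopHat to mm9 and computed FPKM with Cuffdiff; the annotation and the scaling between libraries are not given in the sources used here. The deposited FPKM of 24 libraries were used, and 5 columns of Control week 5 were not, because 4 samples carry that label. For Recovery week 9, 3 samples carry the label and 2 columns were analysed here. Genes averaging at least 0.5 FPKM (12759) were tested as log2(FPKM + 0.5) with limma 3.58.1 in R 4.3.3, in 1 fit of 8 group means with 16 residual degrees of freedom and a mean-dependent prior variance, two-sided, for 6 comparisons, with Benjamini-Hochberg adjustment over all genes. On data simulated for HF week 5 against Control week 19, 76% of 100 genes changed by 1 log2 unit and 98% of 100 changed by 2 were recovered. Of the unchanged genes, 4.81% had an unadjusted p under 0.05. The changed genes were drawn only from those with a control mean above 3 on the log2(FPKM + 0.5) scale. These recovery rates therefore do not cover lower genes, among them Ppara, Esrrb, Nrf1, Esrrg and Ppargc1b. Named were all 10 genes, up to 4 genes of each list with the largest called change in HF week 5, and the 3 genes most like each of the 10; 2 genes that this rule names are not reported here. Depth is unknown, so no counting intervals were computed. The alternatives were other pseudocounts, filters, scalings, prior settings and sets of libraries. Promoter windows came from RefSeq, GRCm38.p6.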

Additional observations from a re-analysis of the deposited data

Results flagged for a closer look

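In the controls, Esrra was lowest in library 5, at 86.2 FPKM, and Klf15 was lowest in the same library, at 20.9 FPKM. Each lay far from the other 4 control libraries for the range of its group. For Esrra the gap to the nearest library was 0.789 of the range and for Klf15 0.733, where 0.71 is the critical value for 5 libraries. Of 20 groups of values examined, 2 were singled out in this way, and chance does so in about 1 of 20. Without this library both genes were still called lower in HF week 5.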

How the results depend on the processing

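No paired analysis was made, because per the study the mice of a group were killed at its time point. The columns were assigned to groups only, because their numbers do not match the letters of the labels. The counts of genes called depended most on the HF week 5 libraries. With library 3 alone, an alternative chosen after seeing the data, 2 genes were called lower than Control week 19, 2 higher in Recovery week 19 and 1 higher in Recovery weeks 7 to 13. Leaving out 1 library at a time gave 8 to 9 genes lower in HF week 3, 7 to 9 lower in HF week 5, 6 to 9 higher in Recovery week 19 and 5 to 9 higher in Recovery weeks 7 to 13. The count of 5, without HF week 5 library 1, stood against 5.39% of all genes. No share of all genes is set beside the other counts. In Recovery weeks 7 to 13 against HF week 5, 1 gene was called lower with only the groups compared in the fit and 1 without the HF week 3 libraries. Against Control week 19, 1 was lower at an unadjusted p. Centring on the 6 cardiomyocyte markers, also chosen after seeing the data, left 3 genes lower and 1 higher in HF week 3, where the log2 differences became 0.1417 for Ppard, 0.5074 for Nrf1 and 0.5044 for Tfam, and it moved the median of all genes to 0.858 in HF week 3, 0.133 in Recovery week 19 and 0.135 in Recovery weeks 7 to 13 against Control week 19. In Recovery week 19 against Control week 19 it turned the difference to 0.1276 for Ppargc1b, 0.0064 for Ppara, 0.0922 for Esrra, 0.1064 for Esrrb, 0.0581 for Esrrg, 0.0628 for Tfam and 0.0806 for Klf15, and quantile normalization turned Nrf1 to -0.008. In Recovery weeks 7 to 13 it turned Ppargc1a to 0.0395, Ppargc1b to 0.0342, Esrrb to 0.0144, Esrrg to 0.0389 and Nrf1 to 0.065. Leaving out 1 library at a time, Recovery week 19 against Control week 19 ran from -0.0825 to 0.2415 for Ppargc1a, -0.1192 to 0.0915 for Ppargc1b, -0.0595 to 0.1746 for Ppard, -0.1449 to 0.0166 for Esrrb, -0.0211 to 0.0517 for Nrf1 and -0.1639 to 0.0651 for Klf15. In the same way Nrf1 in HF week 3 ran from -1.1214 to 0.3255 and Ppargc1a in Recovery weeks 7 to 13 from -0.2052 to 0.078. The causes were not tested. Ppara and Klf15 kept their calls in HF week 5 and in Recovery week 19 against HF week 5 under all 19 alternatives.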
